A study of Mus musculus with 6 samples.

Results

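Bulk RNA sequencing of skull osteoblasts from 6-month-old (6-MO) mice was examined for 39 genes of the hypoxia response and of glycolysis, chosen by name and found by their symbols in the deposited counts. All 39 are among the 17830 genes counted. The control mice carried mOCN-Cre, a knock-in that makes Cre from the mouse osteocalcin gene Bglap, together with the tdTomato reporter Ai9. The APPswe mice (TgAPPswe mOCN-Cre;Ai9) carried the same alleles plus a Cre-dependent, CAG-driven transgene for human APP with the Swedish mutation, so the control mice bear Cre too and the transgene switches on only where Bglap has been active. The paper describes osteoblast cultures grown out of calvarial fragments and replated. For sequencing it describes tdTomato-positive cells sorted from skulls, and does not say there whether they were cultured first. There were 3 libraries of each genotype, numbered 1 to 3 in the labels, which do not say whether each is a separate mouse, so p-values here measure the spread between libraries. The mice were described as male and of C57BL/6J background. Values below follow the order of replicates 1, 2 and 3.

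Cells sense oxygen through prolyl hydroxylases that mark the alpha subunits of hypoxia-inducible factor (HIF) for destruction by the Vhl protein. When oxygen or hydroxylase activity is low, the alpha subunits persist, pair with Arnt and bind short DNA elements near genes for glucose uptake, glycolysis, lactate export, collagen hydroxylation and vessel growth. In bone, osteoblasts are known to rely heavily on glycolysis, and HIF in osteoblasts couples bone formation to vessel growth. Much of this regulation of the alpha subunits acts on protein, which RNA levels do not report.

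Library totals lay between 17263757 and 18398392 counts, and values are given in CPM, a gene's counts scaled to a fixed library size after TMM normalization, where the floor of 3 counts equals 0.167 to 0.173 CPM and covers counting error only. Control replicate 2 stood apart. Its counts on 4 Y-linked genes summed to 2, against 2257 to 3406 in the other 5 libraries, and the defining osteoblast marker Bglap was at 0.0562 CPM there against 6.45 to 11.5 CPM elsewhere. Col1a1, the main collagen gene of osteoblasts, was abundant in every library, at 3585 to 5705 CPM. Summed proliferation markers were at 1203 CPM in that library and at 529 to 561 CPM in the others. The counts below are therefore given with all 6 libraries and without control replicate 2. The cell-type markers also differed between genotypes. Muscle markers summed to 5.43 to 18.2 CPM in control and 243 to 252 CPM in APPswe. Of 14 tested, 14 passed as higher, with or without control replicate 2, and Ckm was at 0 in all controls. Macrophage markers summed to 18310.5 to 25408 CPM in control and 12699 to 13766 CPM in APPswe, and Lyz2 made up most of each sum. Of 13 tested, 9 passed as lower. Without control replicate 2, 12 passed as lower and 1 as higher. The median macrophage marker was highest in control replicate 2, at 754 CPM against 407 to 595 CPM elsewhere. Osteoblast markers summed to 8682 to 11474 CPM in control and 7953 to 8756 CPM in APPswe, most of it from Col1a1 and Col1a2. Of 11 tested, 2 passed as higher and 0 as lower, and 4 and 5 without control replicate 2. Osteoclast markers summed to 158 to 287 and 595 to 606 CPM, with 4 of 6 tested passing as higher, and 6 of 6 without control replicate 2. Erythroid markers were at or near 0. Of all 13484 genes tested, 10.5% passed as higher and 12% as lower. Without control replicate 2 these shares were 23.3% and 25% of 13753 genes. The part of these cell types in the results was not tested, and in bulk samples fewer cells of a type and less RNA per cell cannot be told apart.

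The hypoxia and glycolysis genes took 1.61%, 1.44% and 1.68% of all counts in the control libraries and 1.78%, 1.84% and 1.86% in the APPswe libraries. Genotypes were compared by edgeR's quasi-likelihood test on all genes with enough counts, and a gene passed at an adjusted p of at most 0.05 (Benjamini-Hochberg over all genes tested). With all 6 libraries, 11 of 39 genes passed as higher in APPswe, or 28.2%, where 10.5% of all 13484 genes tested did so. Only Hk1 passed as lower, which is 2.56% of the list against 12% of all genes. The stricter call also asked for a log2 fold change of 1 or more in size. Angptl4, Egln3 and P4ha2 met it as higher, 7.69% of the list against 3.74% of all genes, and 0 members met it as lower, where 3.6% of all genes did. Epas1 alone would have met it as lower by its unadjusted p = 0.0168, and DESeq2 called 1 (Epas1). Counting only whether all 3 APPswe libraries lay beyond all 3 controls, 23 members were higher, or 59%, against 22.8% of all genes. There were 3 lower by that count (Hk1, Pfkp and Pkm), 7.69% against 22.2%. The median log2 fold change was 0.30 over the list and -0.0033 over all genes tested.

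Without control replicate 2 more genes passed overall. Of the 39 members, 20 then passed as higher, 51.3% against 23.3% of 13753 genes tested, and 6 as lower, 15.4% against 25%. By the stricter call 1 member (Angptl4) was higher, 2.56% against 4.87% of all genes, and Epas1 and Adm were lower, 5.13% against 6.58%. All APPswe libraries lay above both remaining controls for 24 members, 61.5% against 32.9%, and below them for 8, 20.5% against 33.3%. The median over the list was then 0.19. The same 12 genes that passed with all 6 libraries passed again in the same direction, 14 more joined them, and 13 passed in neither fit. Leaving out APPswe replicate 2 or 3 left 1 member passing as higher, beside 506 of 13731 and 480 of 13742 genes tested. In these fits the share of the list was thus not above that of all genes. Leaving out APPswe replicate 1 or control replicate 1 left 4 members, beside 675 of 13742 and 882 of 13610 genes. Leaving out control replicate 3 left 8, beside 897 of 13603 genes. Hif1a passed in all 6 fits that left out 1 library.

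Control replicate 2 held the lowest value of the 6 libraries for 30 of the 39 genes. Against the mean of control replicates 1 and 3, the median log2 difference over the list was -0.31 in control replicate 2, with 35 genes below. It was 0.17, 0.22 and 0.22 in the APPswe libraries, with 30, 29 and 29 genes above. The APPswe libraries therefore sat above the other controls by less than control replicate 2 sat below them. The library names in the labels come in 2 styles, with a hyphen (control replicates 1 and 2, APPswe replicate 1) or a low line (the others), whose meaning is not given. Control replicate 2 is also the only library with the letter S in its name, where the others have L. What these letters mean is not given either. Within the hyphen style the median difference of APPswe replicate 1 from control replicate 1 was 0.20, and 0.32 from the mean of control replicates 1 and 2. Within the low-line style that of APPswe replicates 2 and 3 from control replicate 3 was 0.16, beside 0.30 in the pooled fit. With the name style as a covariate, 6 of the 39 passed as higher and 2 as lower, beside 1297 and 1446 of 13484 genes tested. Angptl4, Egln3 and P4ha2 then did not pass (edgeR adjusted p = 0.086, 0.0573 and 0.0795). All 26 genes that passed in either fit had the same direction in both styles when control replicate 2 was left out. They were picked by their differences between these same libraries, so this count gives no separate support.

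**Figure D1:**
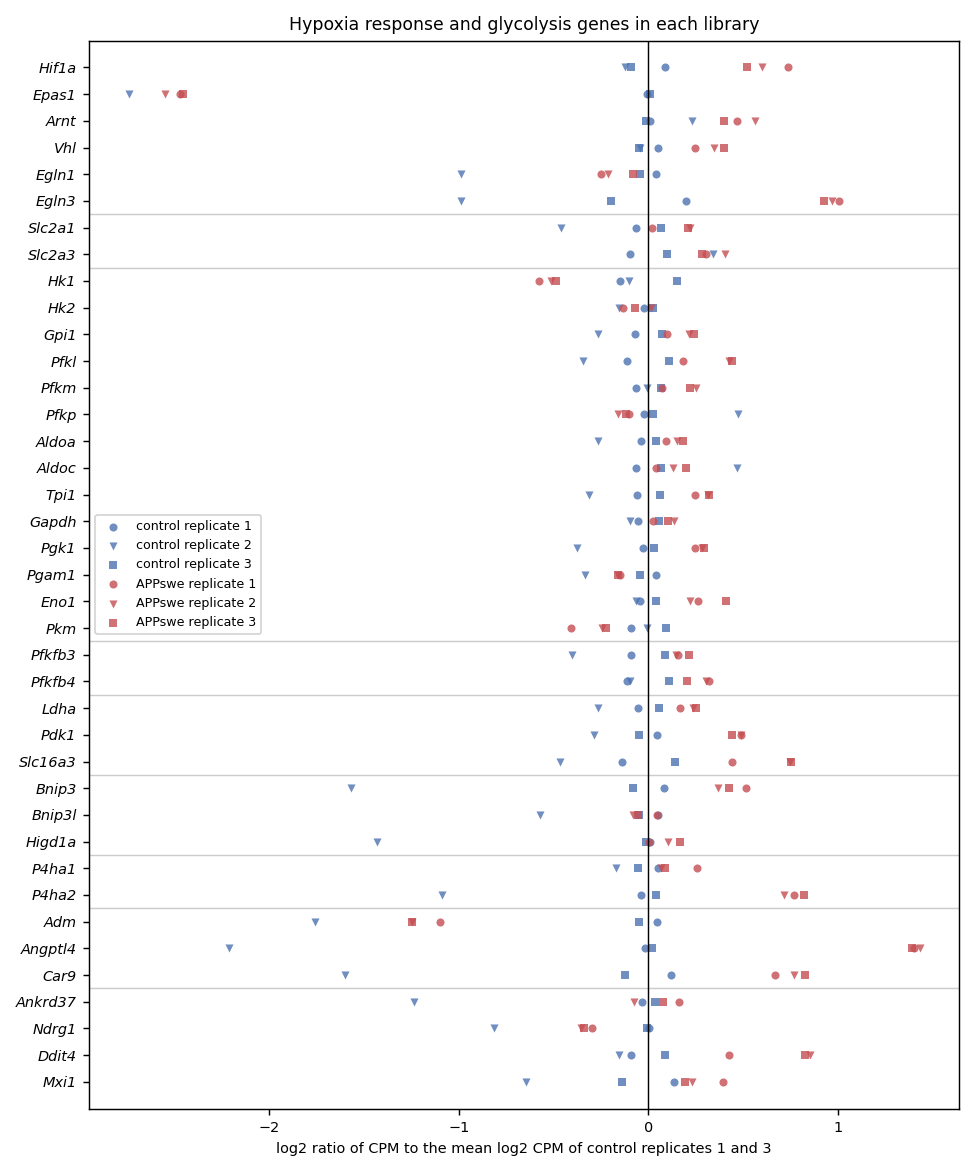
Each row is 1 of the 39 genes, and each point 1 library, placed by its log2 CPM minus the mean of control replicates 1 and 3. Control replicate 2 lies to the left of the other 5 libraries for 30 genes, and the APPswe libraries lie close together.

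**Figure D2:**
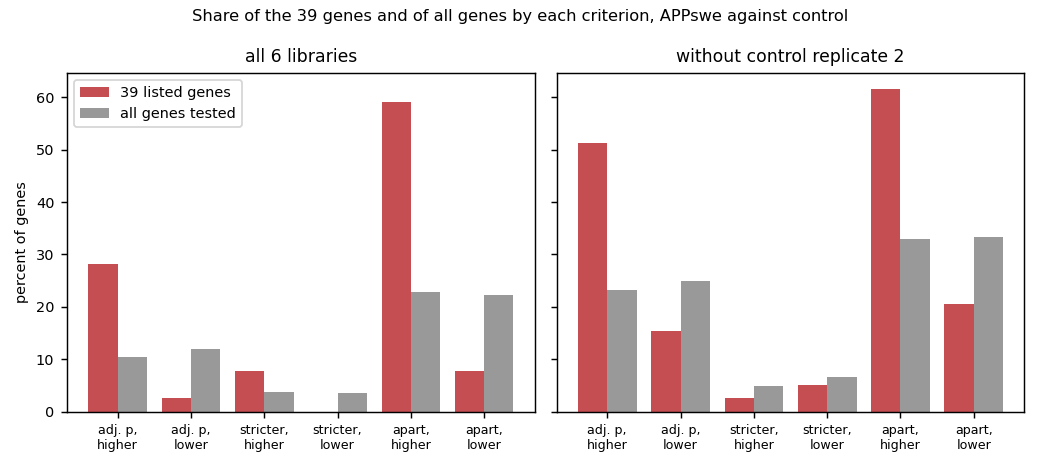
Bars give the percentage of the 39 genes and of all genes tested that met each criterion (adjusted p of at most 0.05, the same with a log2 fold change of 1 or more in size, or groups that did not overlap), in each direction, with all 6 libraries and without control replicate 2. With all 6 libraries 28.2% of the list against 10.5% of all genes passed as higher.

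To show what stretch of DNA a HIF element is looked for in, start windows of 5 genes that passed are given with the short core that HIF binds, ACGTG or GCGTG on either strand. They run from 250 bases before to 50 after a RefSeq transcript start (GRCm38.p6), 5′ to 3′ on the gene's strand, with the core in capitals. The labels name GRCm38 as the authors' build. P4ha2 and Egln3 are the members past the stricter call that are in the promoter table, and Hif1a, Pdk1 and Ddit4 were added after their values were seen, for passing in at least 4 of the 6 fits that left out 1 library.
P4ha2 promoter, chr11:54100674-54100973, plus strand: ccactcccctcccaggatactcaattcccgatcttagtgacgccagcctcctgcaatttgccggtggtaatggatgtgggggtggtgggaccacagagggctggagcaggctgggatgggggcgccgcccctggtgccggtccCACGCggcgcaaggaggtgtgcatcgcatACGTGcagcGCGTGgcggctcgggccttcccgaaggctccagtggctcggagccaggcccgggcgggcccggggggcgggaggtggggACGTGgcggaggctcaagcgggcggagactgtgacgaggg
Egln3 promoter, chr12:54203825-54204124, minus strand: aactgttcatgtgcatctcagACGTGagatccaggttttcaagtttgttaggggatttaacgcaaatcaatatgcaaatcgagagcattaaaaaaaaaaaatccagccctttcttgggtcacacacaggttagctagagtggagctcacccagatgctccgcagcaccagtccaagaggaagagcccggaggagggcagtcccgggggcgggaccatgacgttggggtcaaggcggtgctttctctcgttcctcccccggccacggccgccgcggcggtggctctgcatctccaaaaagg
Hif1a promoter, chr12:73907617-73907916, plus strand: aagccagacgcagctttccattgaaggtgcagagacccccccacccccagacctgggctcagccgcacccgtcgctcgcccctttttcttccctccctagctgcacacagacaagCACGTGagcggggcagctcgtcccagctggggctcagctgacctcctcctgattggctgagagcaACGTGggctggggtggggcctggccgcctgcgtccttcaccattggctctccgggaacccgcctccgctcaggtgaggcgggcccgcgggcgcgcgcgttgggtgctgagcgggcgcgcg
Pdk1 promoter, chr2:71872974-71873273, plus strand: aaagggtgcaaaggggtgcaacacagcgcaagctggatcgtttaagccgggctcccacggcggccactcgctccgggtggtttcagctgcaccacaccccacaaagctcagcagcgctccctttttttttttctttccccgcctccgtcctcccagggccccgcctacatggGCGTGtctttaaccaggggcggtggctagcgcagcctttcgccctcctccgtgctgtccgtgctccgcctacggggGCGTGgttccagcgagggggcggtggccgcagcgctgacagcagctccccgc
Ddit4 promoter, chr10:59951721-59952020, minus strand: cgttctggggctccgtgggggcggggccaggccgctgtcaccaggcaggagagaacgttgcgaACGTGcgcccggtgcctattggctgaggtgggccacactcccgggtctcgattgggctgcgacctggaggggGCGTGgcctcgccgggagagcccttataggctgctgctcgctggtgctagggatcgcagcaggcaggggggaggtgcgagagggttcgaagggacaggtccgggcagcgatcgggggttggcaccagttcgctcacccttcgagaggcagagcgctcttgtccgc

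The P4ha2 window held 4 matches, the first of them on the opposite strand and so printed as CACGC. The Hif1a window held 3, of which a pair share the palindrome CACGTG. Pdk1 and Ddit4 held 2 each and Egln3 held 1. A second Pdk1 start, with its window at chr2:71874654-71874953, is not printed and held 0. Of other members that passed as higher with all 6 libraries, Arnt held 1, Slc16a3 2, each Eno1 window 2, and Vhl and Tpi1 0. Hk1, the only member that passed as lower, held 5 in 1 window and 0 in the other. The core was thus neither in every gene that was higher nor confined to such genes. RefSeq windows were found for 34 of the 39 genes, Epas1, Angptl4, Slc2a3, Bnip3l and Ndrg1 being named only. Of the 49 windows of these genes, 40 held the core, or 81.6%, against 43.8% of 32841 windows of all genes. Some genes have several windows, and some of these overlap. By gene, 31 of 34 held the core in a window, against 12627 of 27018. The genes were chosen by name for the hypoxia response and glycolysis, so these shares say nothing about APPswe. The list's windows were richer in G and C, with a median of 63% against 52.7%, and among all windows with at least 60% G and C the share with the core was 69.2%. ACGTG alone was in 57.1% of the list's windows and in 26.5% of those GC-rich windows, and GCGTG in 55.1% and 59.2%. A match is a string of letters and does not show binding.

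Of the 6 genes of oxygen sensing, 4 passed, all higher in APPswe (66.7%, against 10.5% of all genes). Without control replicate 2, 4 passed as higher (66.7% against 23.3%) and 1 as lower (16.7% against 25%). Hif1a, the oxygen-regulated alpha subunit, was at 203, 175 and 179 CPM in control and 317, 289 and 274 CPM in APPswe. All APPswe libraries lay above all controls, and the log2 fold change was 0.66 (standard error, SE, 0.10, edgeR adjusted p = 0.00523). It ranged from 0.60 to 0.72 with each library left out. Arnt, the partner both alpha subunits need, was at 55.5, 64.6 and 54.7 CPM in control and 76.3, 81.5 and 72.7 CPM in APPswe (log2 fold change 0.40, SE 0.09, edgeR adjusted p = 0.0263). Vhl, the ubiquitin ligase subunit that recognises hydroxylated alpha subunits, was at 24.9, 23.3 and 23.2 CPM and at 28.5, 30.6 and 31.7 CPM (log2 fold change 0.35, SE 0.09, edgeR adjusted p = 0.0332). For both genes the groups did not overlap, and each kept its call in 1 of 6 fits with a library left out, the one without control replicate 2.

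The hydroxylases that mark the alpha subunits differed from each other. Egln3 (PHD3), itself a well known HIF target, was at 10.7, 4.72 and 8.18 CPM in control and 18.8, 18.3 and 17.8 CPM in APPswe. The groups were apart, with a log2 fold change of 1.22 (SE 0.28, edgeR adjusted p = 0.0236), and of 0.96 (SE 0.12, edgeR adjusted p = 0.0001) without control replicate 2, its lowest library. The call was kept without control replicate 1 and lost without control replicate 3 or any APPswe library (edgeR adjusted p = 0.064 to 0.0874). Egln1 (PHD2), the main oxygen sensor of most cells, was at 129, 63.1 and 122 CPM in control and 106, 108 and 118 CPM in APPswe. Its APPswe values lay between control replicate 2 and the other controls, and its log2 fold change was 0.08 (SE 0.25, edgeR adjusted p = 0.848) and turned to -0.18 (SE 0.07, edgeR adjusted p = 0.0611) without that library.

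Epas1 (HIF-2 alpha), the alpha subunit best known from endothelium, went the other way from Hif1a. It was at 120, 17.9 and 121 CPM in control and 21.6, 20.5 and 21.9 CPM in APPswe, so that control replicate 2 resembled the APPswe libraries and the groups overlapped. The log2 fold change of -2.01 (SE 0.64) did not pass (edgeR adjusted p = 0.0646), and without control replicate 2 it was -2.49 (SE 0.07, edgeR adjusted p = 2.68e-09). DESeq2 called it with all 6 libraries (adjusted p = 0.0351). Some endothelial markers had a like pattern. Pecam1, a surface protein of endothelial cells, was at 47.8, 0.0562 and 50.5 CPM in control and 1.74, 2.4 and 3.03 CPM in APPswe. The 6 endothelial markers summed to 228, 81.8 and 243 CPM in control and 23.9 to 25.6 CPM in APPswe, and none was at 0. All 6 had a negative fold change, and 2 (Kdr and Vwf) passed as lower (33.3%, against 12% of all genes). Without control replicate 2 all 6 passed as lower (100% against 25%). Kdr and Vwf, however, were highest in control replicate 2, at 25.5 and 55 CPM. The part of endothelial cells in the Epas1 values was not tested.

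Levels of different genes can be set side by side only per length, for which the deposited FPKM (fragments per kilobase of gene, scaled to sequencing depth) were used. Hif1a made up 67.4%, 92.3% and 64.5% of the summed FPKM of Hif1a, Epas1 and Hif3a in control libraries, and 94.6%, 94.4% and 93.8% in APPswe. Among the prolyl hydroxylases Egln1, Egln2 and Egln3, the share of Egln3 was 3.43% to 5.79% in control and 9.78% to 11.7% in APPswe. No test was run on these shares. The Egln3 share did not overlap between genotypes, and the Hif1a share separated control replicates 1 and 3 from all other libraries while control replicate 2 lay just under the APPswe values.

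**Figure D3:**
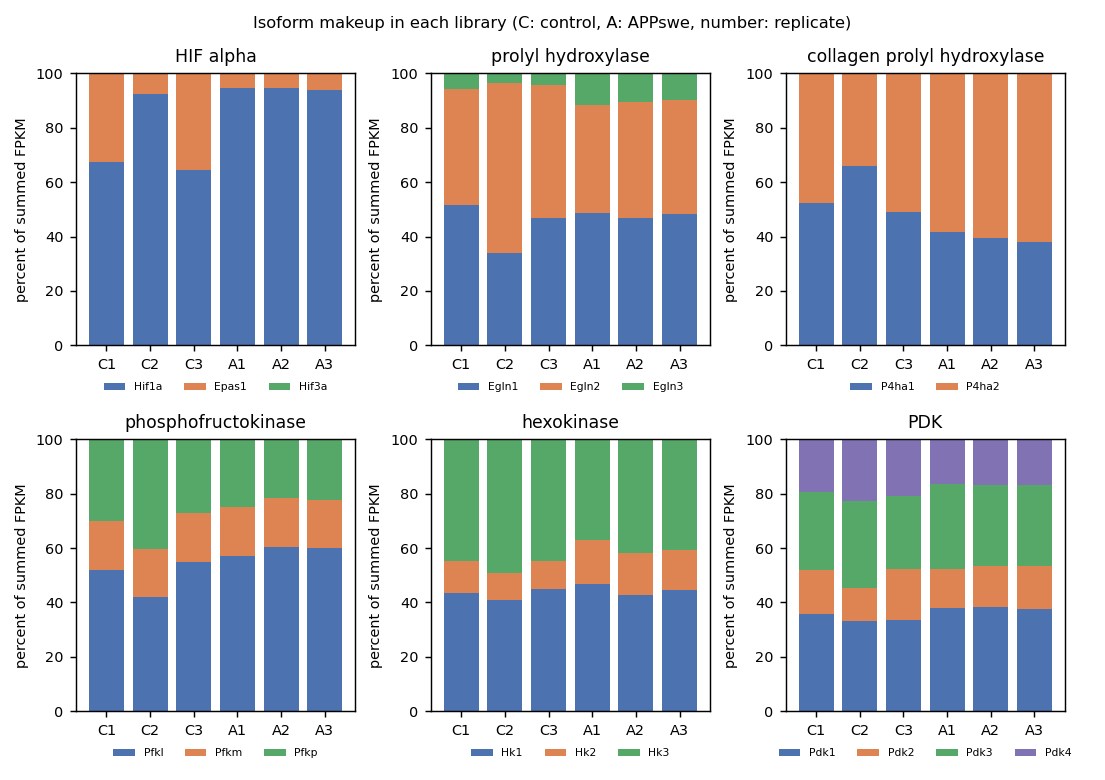
Stacked bars give, for each library (C control, A APPswe, with the replicate number), the percentage of summed FPKM held by each member of 6 gene families. Epas1 held 32.6% and 35.5% in control replicates 1 and 3 and 5.33% to 7.65% in the other libraries.

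Genes of glucose uptake and glycolysis that passed went both ways. Of 14 enzymes, 2 passed as higher (14.3%, against 10.5% of all genes) and Hk1 as lower (7.14% against 12%). Without control replicate 2 there were 5 higher (35.7% against 23.3%) and 3 lower (21.4% against 25%), while neither of the glucose transporters passed with all 6 libraries. Slc2a1 (GLUT1), the chief glucose transporter of osteoblasts, ranged from 104 to 150 CPM in control and from 145 to 167 CPM in APPswe (log2 fold change 0.29, SE 0.14, edgeR adjusted p = 0.195). Slc2a3 (GLUT3), a transporter of high affinity, was at 7.28, 9.89 and 8.35 CPM and at 9.64, 10.3 and 9.5 CPM, overlapping with control replicate 2 and passing without it (log2 fold change 0.33, SE 0.12, edgeR adjusted p = 0.0425).

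Hexokinases trap glucose by phosphorylation. Hk1, the constitutive form, was at 184, 190 and 226 CPM in control and 136, 143 and 145 CPM in APPswe. Every APPswe value was lower, with a log2 fold change of -0.50 (SE 0.10, edgeR adjusted p = 0.0146), and the call was lost without any 1 of the APPswe libraries (edgeR adjusted p up to 0.074). Hk2, the form known as a HIF target, ranged from 62.6 to 70.9 CPM in control and from 63.5 to 70.3 CPM in APPswe. Its difference of -0.01 (SE 0.08, edgeR adjusted p = 0.918) had no stable sign, turning positive without TMM and with upper-quartile factors.

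In the middle of the pathway, 2 enzymes passed with all 6 libraries. Tpi1, which interconverts the triose phosphates, was at 610, 512 and 663 CPM in control and 755, 792 and 795 CPM in APPswe (log2 fold change 0.39, SE 0.11, edgeR adjusted p = 0.0433). Eno1, the main enolase outside muscle and neurons, was at 1360, 1336 and 1442 CPM and at 1680, 1634 and 1860 CPM (log2 fold change 0.32, SE 0.08, edgeR adjusted p = 0.0365). Both sets of libraries were apart between genotypes, and Tpi1 passed in 2 and Eno1 in 1 of the fits with a library left out. Further enzymes missed the threshold with all 6 libraries in edgeR and passed without control replicate 2. Pfkl, the liver-type phosphofructokinase that commits sugar to glycolysis, was at 158, 134 and 184 CPM in control and 194, 229 and 232 CPM in APPswe (log2 fold change 0.46, edgeR adjusted p = 0.053 with all libraries, and 0.35, edgeR adjusted p = 0.00986, without that one). Pgk1, which makes ATP from bisphosphoglycerate, was at 867, 681 and 904 CPM and at 1050, 1076 and 1085 CPM (0.39, edgeR adjusted p = 0.0568, and 0.28, edgeR adjusted p = 0.00207). Gpi1, the glucose-phosphate isomerase, was at 564, 492 and 622 CPM and at 634, 687 and 699 CPM (0.27, edgeR adjusted p = 0.115, and 0.19, edgeR adjusted p = 0.0429). The APPswe libraries lay above all controls for each of these genes. With all 6 libraries DESeq2 called Pfkl and Pgk1 (adjusted p = 0.013 and 0.0136), and limma on log2(FPKM + 1) called all 3 (adjusted p = 0.0302, 0.0295 and 0.0467 for Pfkl, Pgk1 and Gpi1). In that limma fit the median log2 fold change of all genes was 0.071. Gpi1 did not pass in DESeq2 (adjusted p = 0.0819) or in limma without the filter (adjusted p = 0.059).

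A pair of late enzymes were lower without control replicate 2. Pkm, the pyruvate kinase of most tissues, was at 3240, 3437 and 3679 CPM in control and 2605, 2910 and 2956 CPM in APPswe. The groups did not overlap, and the log2 fold change was -0.29 (SE 0.09, edgeR adjusted p = 0.0613) with all 6 libraries and -0.29 (SE 0.07, edgeR adjusted p = 0.00791) without that one. DESeq2 called it with all 6 libraries (adjusted p = 0.0142). Pgam1, the mutase between Pgk1 and Eno1, was at 909, 700 and 858 CPM and at 796, 791 and 792 CPM. Its log2 fold change of -0.05 (edgeR adjusted p = 0.765) turned positive without TMM and with upper-quartile factors, and was -0.15 (SE 0.06, edgeR adjusted p = 0.0436) without control replicate 2. The other enzymes passed in neither fit. Aldoa, the main aldolase, and Gapdh, the dehydrogenase after it, had log2 fold changes of 0.23 (SE 0.10, edgeR adjusted p = 0.15) and 0.12 (SE 0.08, edgeR adjusted p = 0.313). Pfkm, the muscle-type phosphofructokinase, was at 0.18 and Pfkp, the platelet type, at -0.30, while Aldoc, a minor aldolase, was at -0.05 and turned positive without TMM. In phosphofructokinase FPKM, Pfkl made up 41.9% to 54.8% in control and 57.1% to 60.3% in APPswe. By the authors' FPKM, the list's most abundant genes were Gapdh, with a mean of 2755 in control and 3172 in APPswe, and Pkm, at 1558 and 1348.

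Of the bifunctional enzymes that set the fructose bisphosphate signal to phosphofructokinase, Pfkfb4 was at 30.9, 31.2 and 36.1 CPM in control and 41.7, 41.2 and 38.5 CPM in APPswe. The groups were apart, with a log2 fold change of 0.31 (SE 0.09, edgeR adjusted p = 0.0561) that passed without control replicate 2 (0.28, SE 0.09, edgeR adjusted p = 0.0248). Pfkfb3, the more widely induced form, ranged from 38.8 to 54.6 and from 56.7 to 59.6 CPM and passed in neither fit (log2 fold change 0.29, SE 0.13, edgeR adjusted p = 0.15).

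Of the 3 genes that act on the fate of pyruvate, 2 passed as higher (66.7%, against 10.5% of all genes). Without control replicate 2 there were 3 (100% against 23.3%). Pdk1, a kinase that blocks pyruvate dehydrogenase and so keeps pyruvate out of mitochondria, was at 86.8, 68.8 and 81.3 CPM in control and 118, 118 and 114 CPM in APPswe. The groups were apart, with a log2 fold change of 0.56 (SE 0.10, edgeR adjusted p = 0.00988), and the call was lost without APPswe replicate 2 or 3 (edgeR adjusted p = 0.0544 and 0.0509). Slc16a3 (MCT4), which exports lactate, was at 92.3, 73.6 and 112 CPM and at 138, 171 and 171 CPM (log2 fold change 0.79, SE 0.17, edgeR adjusted p = 0.0195). Again no APPswe library fell among the controls, and the call was lost without control replicate 1 or APPswe replicate 2 or 3 (edgeR adjusted p = 0.059 to 0.0848). Ldha, the lactate dehydrogenase subunit that favours lactate, was at 1063, 920 and 1148 CPM in control and 1239, 1299 and 1316 CPM in APPswe. It lay apart between groups and did not pass with all 6 libraries in edgeR, while it did without control replicate 2 (log2 fold change 0.30, SE 0.10, edgeR adjusted p = 0.0741, and 0.22, SE 0.06, edgeR adjusted p = 0.0118). DESeq2 called it with all 6 libraries (adjusted p = 0.0297), as did limma on log2(FPKM + 1) (adjusted p = 0.033). In that limma fit the median log2 fold change of all genes was 0.071.

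Proteins of the mitochondrial and hydroxylation response followed. Bnip3, a receptor for the removal of mitochondria, was at 137, 43.6 and 122 CPM in control and 185, 167 and 174 CPM in APPswe. Its groups were apart, but the low control replicate 2 widened the spread, and the log2 fold change was 0.80 (SE 0.38, edgeR adjusted p = 0.178) with that library and 0.44 (SE 0.07, edgeR adjusted p = 0.000671) without it. Bnip3l (NIX), its relative, ranged from 94.8 to 146 CPM and from 133 to 145 CPM, with a log2 fold change of 0.14 (SE 0.16, edgeR adjusted p = 0.574) that turned to -0.03 without that library. Higd1a, a small protein of the respiratory chain, ranged from 38.6 to 105 and from 104 to 117 CPM and passed in neither fit (log2 fold change 0.43, SE 0.35, edgeR adjusted p = 0.407).

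P4ha2, an alpha subunit of the enzyme that hydroxylates collagen prolines, was at 167, 80.7 and 177 CPM in control and 293, 282 and 304 CPM in APPswe. All APPswe libraries lay above all controls, with a log2 fold change of 1.05 (SE 0.28, edgeR adjusted p = 0.0378) and of 0.77 (SE 0.06, edgeR adjusted p = 3.84e-06) without control replicate 2. The call was lost without control replicate 1 or any APPswe library (edgeR adjusted p = 0.0631 to 0.121). P4ha1, the more widely expressed alpha subunit, ranged from 292 to 341 and from 344 to 392 CPM and did not pass (log2 fold change 0.19, SE 0.09, edgeR adjusted p = 0.182). P4ha2 made up 34% to 51.1% of the summed FPKM of both genes in control and 58.3% to 61.9% in APPswe.

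Of the secreted and surface proteins, Angptl4 had the largest positive difference of the 39 genes. Angptl4, a secreted inhibitor of lipoprotein lipase that also responds to fatty acids through PPAR receptors, lies at chr17:33774900-33781575 (GRCm38.p6). It was at 30.9, 6.75 and 31.7 CPM in control and 82.6, 84.5 and 82.1 CPM in APPswe, with means of 23.1 ± 14.2 and 83.1 ± 1.24 CPM (SD, n = 3). The groups were far apart, and the log2 fold change was 1.85 (SE 0.50, edgeR adjusted p = 0.0415) with all libraries and 1.41 (SE 0.07, edgeR adjusted p = 9.13e-08) without control replicate 2. Without any 1 of the other 5 libraries the call was lost (edgeR adjusted p = 0.0626 to 0.124). Car9, a carbonic anhydrase at the cell surface and a classic hypoxia marker, was at 11.5, 3.48 and 9.71 CPM and at 16.8, 18 and 18.7 CPM. It was apart between groups and passed without control replicate 2 (log2 fold change 1.11, SE 0.39, edgeR adjusted p = 0.0845, and 0.75, SE 0.11, edgeR adjusted p = 0.000277). DESeq2 called it with all 6 libraries (adjusted p = 0.0193).

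Adm (adrenomedullin), a vasodilator peptide that HIF induces in many cells, was among the 9 members with a negative log2 fold change. It was at 136, 38.9 and 127 CPM in control and 61.4, 55.5 and 55.4 CPM in APPswe. Control replicate 2 lay below the APPswe libraries and the other controls above them, with a log2 fold change of -0.81 (SE 0.42, edgeR adjusted p = 0.21), and of -1.20 (SE 0.07, edgeR adjusted p = 3.58e-07) without that library. Adm is also made by endothelium, whose markers moved as given above, and their part in the Adm values was not tested.

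Among genes of stress and growth control, Ddit4 (REDD1), an inhibitor of mTORC1, was at 44, 42 and 49.8 CPM in control and 62.8, 84.3 and 82.8 CPM in APPswe. Its groups did not overlap, and the log2 fold change of 0.76 (SE 0.14, edgeR adjusted p = 0.0104) was lost only without APPswe replicate 2 or 3 among the fits with a library left out (edgeR adjusted p = 0.0548 and 0.0573). Mxi1, a repressor that opposes Myc, was at 40.3, 23.4 and 33.3 CPM and at 48.2, 43 and 41.9 CPM, passing only without control replicate 2 (log2 fold change 0.46, edgeR adjusted p = 0.135, and 0.27, SE 0.10, edgeR adjusted p = 0.0435). Ndrg1, a stress protein often used as a hypoxia marker, was at 98, 55.6 and 97.3 CPM and at 79.5, 76.3 and 77.2 CPM. Its APPswe values lay between control replicate 2 and the other controls, where the log2 fold change was -0.11 (SE 0.21, edgeR adjusted p = 0.751) with all libraries, positive on the FPKM scale, and -0.33 (SE 0.06, edgeR adjusted p = 0.00164) without that library. Ankrd37, a small HIF target, ranged from 3.32 to 8.01 and from 7.41 to 8.75 CPM and passed in neither fit (log2 fold change 0.37, SE 0.32, edgeR adjusted p = 0.45).

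**Figure D4:**
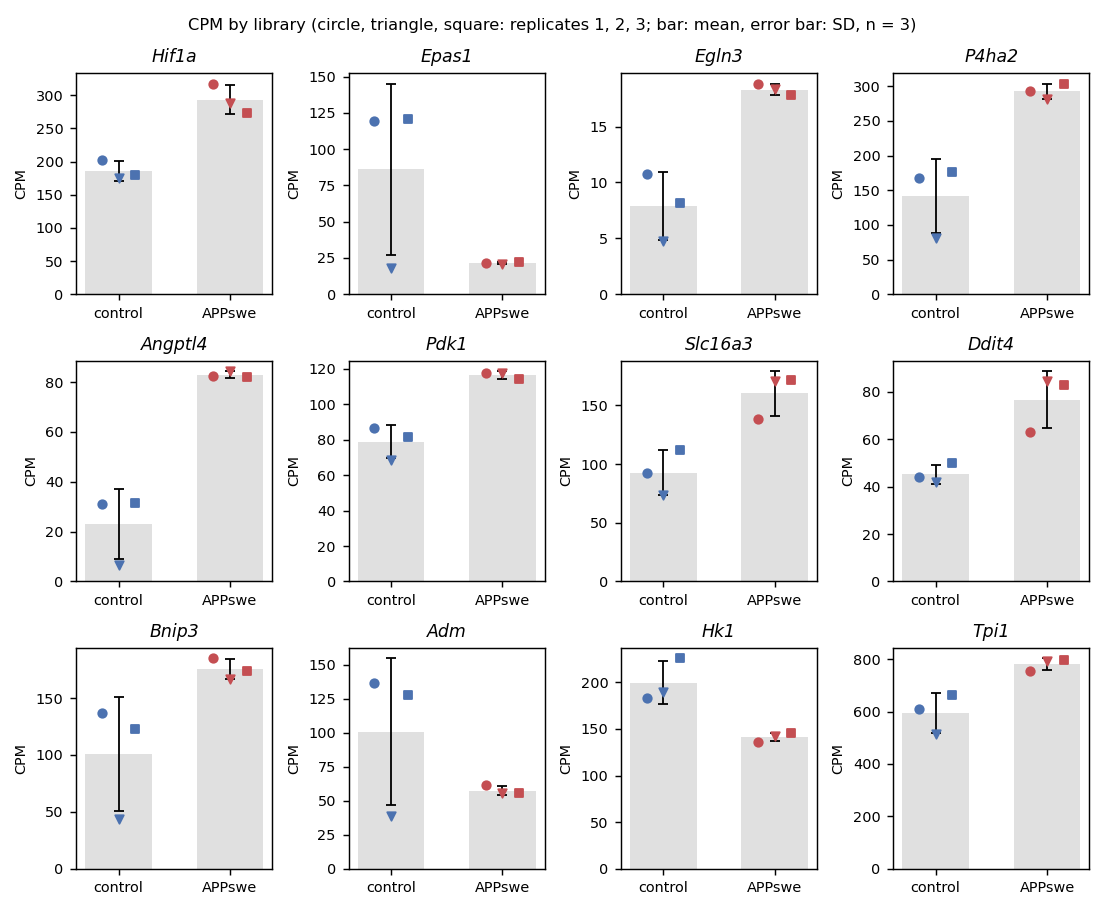
CPM of selected genes on linear axes that start at 0, with 1 point per library, the group mean as a grey bar and the SD as an error bar (n = 3). Hif1a and Angptl4 are apart between genotypes, while for Epas1 and Adm control replicate 2 lies near or below the APPswe libraries.

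**Figure D5:**
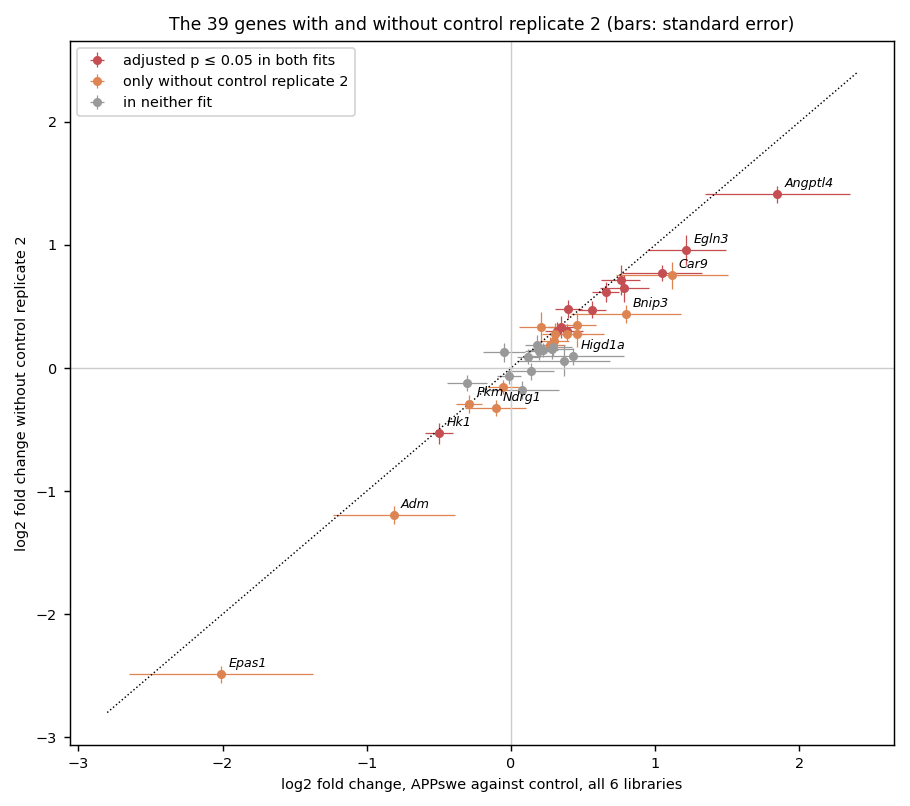
Each point is 1 of the 39 genes, with its log2 fold change (APPswe over control) from all 6 libraries on the x axis and without control replicate 2 on the y axis, bars giving the SE and colours the fits it passed. Angptl4 moved from 1.85 to 1.41, Epas1 from -2.01 to -2.49 and Adm from -0.81 to -1.20.

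Further genes of the same pathways were counted from lists of hypoxia targets, other glycolysis genes and the tricarboxylic acid (TCA) cycle. Of 31 other hypoxia genes tested, 8 passed as higher (25.8%, against 10.5% of all genes) and 3 as lower (9.68% against 12%), with a median log2 fold change of 0.16. Without control replicate 2, 11 of them passed as higher (35.5% against 23.3%) and 6 as lower (19.4% against 25%), with a median of 0.028. Vegfa, the HIF-induced growth factor of vessels, was alone among them in meeting the stricter call, at 95.8, 79.3 and 93.3 CPM in control and 226, 230 and 228 CPM in APPswe. It was apart between groups with a log2 fold change of 1.35 (SE 0.09, edgeR adjusted p = 0.000525), and passed with any library left out. The 3 that fell, named after their values were seen, were Bhlhe41, a HIF-induced repressor (-0.79, edgeR adjusted p = 0.00691), Cited2, which competes with HIF for its coactivator (-0.57, edgeR adjusted p = 0.0487), and Arnt2, a relative of Arnt (-0.64, edgeR adjusted p = 0.0484). The 15 other glycolysis genes tested had a median log2 fold change of -0.03 (0.10 without control replicate 2), with 3 higher (20% against 10.5%) and 1 lower (6.67% against 12%). Without control replicate 2, 6 of 17 tested passed as higher and 6 as lower, or 35.3% each, against 23.3% and 25%. Eno3, the muscle enolase, met the stricter call at 6.81, 7.2 and 6.88 CPM in control and 18.9, 19.2 and 19 CPM in APPswe (log2 fold change 1.45, SE 0.10, edgeR adjusted p = 0.000605). The muscle markers given above moved in the same direction, and their part was not tested. Slc16a1 (MCT1), another lactate carrier, and Pdk3, a relative of Pdk1, also passed as higher, and Hk3, a hexokinase of myeloid cells, as lower, all named after their values were seen. Of 24 TCA cycle genes, Idh2 and Sdhd passed as higher (log2 fold changes 0.71 and 0.32) and 22 did not pass. The share higher was 8.33%, against 10.5% of all genes, and without control replicate 2 it was 25% (6 genes) against 23.3%.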

How the data were processed

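RNA from tdTomato-positive calvarial cells of 3 control and 3 APPswe libraries was prepared with a SMARTER mRNA-seq kit. The authors deposited read counts per gene without normalization, and FPKM values that the authors computed. FPKM blanks, in 397 genes for libraries named with a hyphen and 716 for the others, were read as 0. The labels name GRCm38, and the aligner and counting tool are not given in the sources used here. Columns with the authors' own fold changes and p-values were not used.

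The main tests used edgeR 4.0.16 under R 4.3.3 (TMM, filterByExpr, quasi-likelihood test without covariates), and p-values were adjusted by Benjamini-Hochberg over all genes tested. The SE of a log2 fold change is its size over the square root of F. CPM is scaled to TMM library sizes. FPKM was tested with limma 3.58.1 on log2(FPKM + 1) and log2(FPKM + 0.1), for genes of at least 1 FPKM in 3 libraries or unfiltered. Other alternatives were DESeq2 1.42.0, its size factors, upper-quartile factors or no TMM in edgeR, no filter or at least 10 counts per library, the style of library names as a covariate, a block for the replicate number, and each library left out.

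The members, gene lists and tests were chosen with earlier results of these data known. Values are given per library for each member passing with or without control replicate 2, and for the oxygen sensors. From the other lists Vegfa and genes past the stricter call are named, with others said to be chosen after their values were seen. All pairs of libraries within a genotype differed by more than sampling noise, by very unlike amounts. The chi-square per degree of freedom was 1.57 between APPswe replicates 2 and 3. It was 7.1 and 7.6 between APPswe replicate 1 and these, and 5.94 between control replicates 1 and 3. Between control replicate 2 and control replicates 1 and 3 it was 72.87 and 77.25. In simulated data edgeR found 185 of 200 genes given a log2 change of 2, and 14 unchanged genes, of 13391 tested. All simulated libraries of a genotype were drawn alike, with none set apart as control replicate 2 was. Recovery with such a library was not tested. Named pseudogenes in the annotation (13, of 7 members) are not in the count table, and reads shared with them could be counted to the members or lost.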

Additional observations from a re-analysis of the deposited data

How the results depend on the processing

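The median log2 fold change of the 39 genes stayed positive in every alternative run, from 0.19 to 0.38. Of all genes tested, 1414 passed as higher and 1622 as lower, and the split turned to 1840 and 1286 without TMM, 1778 and 1354 with upper-quartile factors, and 1774 and 1039 with limma on log2(FPKM + 1). No alternative moved the median of all genes by more than 0.1 on the log2 scale from the value with TMM. DESeq2 gave 3 members lower, 1 of them by the stricter call. With the name style as a covariate 6 passed as higher and 2 as lower, beside 1297 and 1446 of 13484 genes, and 0 by the stricter call. With limma on log2(FPKM + 1), 17 passed as higher, beside 1774 of 12087 genes. With each library left out, genes passing ranged from 1024 (without APPswe replicate 3) to 6637 (without control replicate 2), members higher from 1 to 20, members lower from 0 to 6, and members by the stricter call from 0 to 1 higher and from 0 to 2 lower. The cause was not tested, beyond the smaller number of libraries.

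Same-numbered libraries deviated from their group means with correlations of 0.074, -0.036 and 0.158, and not every library correlated best with its own number, so the numbers were not taken to pair the samples. With the replicate number as a block, 2021 of 13484 genes passed, 933 of them as higher, and 7 members passed as higher.

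A few members changed sign. With each library left out, Egln1 ranged from -0.18 to 0.26, Hk2 from -0.061 to 0.023, Aldoc from -0.16 to 0.13, Pgam1 from -0.15 to 0.023, Bnip3l from -0.028 to 0.25 and Ndrg1 from -0.33 to 0.020, and of these only Pgam1 and Ndrg1 passed, as lower, without control replicate 2. Egln1 was at -0.18, Bnip3l at -0.028 and Aldoc at 0.13 without control replicate 2. Hk2 was at 0.057 without TMM, 0.044 with upper-quartile factors, 0.020 without control replicate 3, 0.023 without APPswe replicate 1, and 0.058 and 0.062 with limma at the larger and the smaller pseudocount. Aldoc was at 0.021, 0.012, 0.039 and 0.041 without TMM, with upper-quartile factors and with limma, and Pgam1 at 0.019, 0.0047, 0.032 and 0.032, and at 0.023 without control replicate 1. Ndrg1 was at 0.020 without control replicate 1, 0.012 without control replicate 3, and 0.012 and 0.014 with limma. The smallest change tested on simulated data was a log2 fold change of 2, so the power for smaller changes was not tested.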

Other observations

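The genes given here are from the list of other hypoxia targets, picked once their values were known. Gys1, the glycogen synthase of muscle and most tissues, was at 60.2, 59.8 and 62 CPM in control and 96.4, 100 and 103 CPM in APPswe, with a log2 fold change of 0.72 (SE 0.07, edgeR adjusted p = 0.00117). Pygl, a glycogen phosphorylase, was at 76.7, 69.7 and 72.2 CPM and at 106, 101 and 99.2 CPM (0.49, SE 0.07, edgeR adjusted p = 0.00569). Both passed with any library left out. Gbe1, the glycogen branching enzyme, ranged from 22.9 to 31.9 CPM in control and from 28.8 to 34.8 CPM in APPswe, overlapping, and did not pass (0.16, SE 0.15, edgeR adjusted p = 0.477). Tfrc, the transferrin receptor, was at 64.8, 76.6 and 56.5 CPM and at 110, 92.9 and 95.6 CPM (0.59, SE 0.13, edgeR adjusted p = 0.0208), a call kept only without control replicate 2 among the fits with a library left out.

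Loxl2, which crosslinks collagen, was at 187, 214 and 196 CPM in control and 357, 360 and 353 CPM in APPswe (log2 fold change 0.84, SE 0.08, edgeR adjusted p = 0.00122), and Plod2, a collagen lysyl hydroxylase, was at 136, 90.3 and 127 CPM and at 187, 169 and 166 CPM (0.56, SE 0.16, edgeR adjusted p = 0.0461). In both genes the genotypes did not overlap. Loxl2 passed with any library left out, and Plod2 in 2 of the 6 such fits. Their relatives Lox and Plod1, of the same list, overlapped between genotypes. They did not pass (0.33, edgeR adjusted p = 0.312, and 0.0012, edgeR adjusted p = 0.994). The haem oxygenase Hmox1, also abundant in macrophages, was at 1355, 851 and 1437 CPM and at 826, 870 and 874 CPM, and passed as lower without control replicate 2 but not with all 6 libraries (-0.50, edgeR adjusted p = 0.106, and -0.70, edgeR adjusted p = 3.61e-06).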
